A study of Mus musculus with 11 samples.

Results

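The genes examined were those of the nuclear genome that encode the respiratory chain and ATP synthase of mitochondria. They were taken as the protein-coding genes on nuclear chromosomes whose symbol starts with Ndufa, Ndufb, Ndufc, Ndufs, Ndufv, Uqcr, Cox4, Cox5, Cox6, Cox7, Cox8 or Atp5, or is Sdha, Sdhb, Sdhc, Sdhd or Cyc1, and were matched by Ensembl identifier to the count tables. This gave 99 of the 53700 gene entries: 38 of complex I, 8 complex I assembly factors that the prefix Ndufa also takes in (Ndufaf1 to Ndufaf8), 4 of complex II, 9 of complex III, 21 of complex IV and 19 of ATP synthase. Ndufa4 and Ndufa4l2 were placed in complex IV, where the protein of Ndufa4 is now assigned. Expression was measured by QuantSeq, which sequences the 3′ end of polyadenylated RNA, in 11 libraries from the cerebral cortex. All mice were 5xFAD females 8 months old, labelled C57BL/6. There were 6 mice with intact Abi3 (Abi3_WT) and 5 with Abi3 deleted (Abi3_KO). All carried the 5xFAD transgenes, which model amyloid deposition and are driven by the neuronal Thy1 promoter, and the study's methods give them as heterozygous for an SJL-derived Trem2 allele. The 5xFAD line came from a mixed B6SJL background and the Abi3 null allele was made in C57BL/6N. That allele is a deletion carried in all cells, not only in microglia. The libraries held 3202310 to 5501958 reads in genes, and each library is 1 mouse.

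The respiratory chain moves electrons from NADH and succinate to oxygen through complexes I to IV of the inner mitochondrial membrane and pumps protons on the way. ATP synthase lets the protons back and makes ATP. Most subunits are encoded in the nucleus and imported, while a small set of core subunits is encoded by mitochondrial DNA, so each complex except complex II depends on both genomes. Neurons draw most of their ATP from this pathway, and in cortex its genes are expressed in every cell type.

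Abi3 itself, the gene deleted in the Abi3_KO mice, checked the labels. Its normalized count (the count divided by the size factor of the library) ranged from 7.24 to 37.7 in the 6 Abi3_WT mice with a median of 17.3. In the Abi3_KO mice it was 2.02 in replicate 2 and 0 in the other 4, so the groups did not overlap (DESeq2, unadjusted p = 2.23e-07, with no adjusted p because its mean count fell under the level at which DESeq2 stops adjusting). Reads outside annotated genes stood apart between the genotypes: there were 59.3 to 68.8 per 100 reads in genes in Abi3_WT mice and 49.8 to 62.5 in Abi3_KO mice, with only Abi3_KO replicate 4 inside the Abi3_WT range. The 8 neuronal marker genes summed to 14738 to 17510 normalized counts in Abi3_WT and 16488 to 18238 in Abi3_KO, and all 8 had counts, as did the markers of astrocytes, oligodendrocytes and microglia. The summed ranges of all 8 marker lists (these 4 with endothelial cells, choroid plexus, blood and muscle) overlapped between genotypes, and no marker that received an adjusted p was called. Their part in the results below was not tested.

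Motifs of factors known for control of mitochondrial genes were searched in the promoters of the members, and are shown for members whose values follow. Each motif was found in under 50% of the member promoters, and no test of enrichment was made. RefSeq sequences of GRCm38.p6 from 250 bases before to 50 after the first listed start were matched for 78 members, 15 of them through older symbols, among 27025 genes in all. The motif GCGCATGCG, read by nuclear respiratory factor 1, was found on either strand in 10 of 78 member promoters (12.8%) and in 1.81% of all promoters. The motif CCGGAAG, read by the ETS factor GABPA (nuclear respiratory factor 2), was found in 23.1% of member promoters and in 9.12% of all. The motif AAGATGGC, read by YY1, was found in 12.8% and 2.88%, TGACGTCA, read by CREB, in 5.13% and 1.88%, and GGGCGG, read by SP1, in 46.2% and 35.9%, whereas TATAAA was found in 10.3% and 14.2%. These are matches of letters, and the median GC content was 58.5% in member promoters and 52.7% in all. Promoters of 3 members are shown, with the matches in capitals.
Uqcrfs1 (chr13:30545267-30545566, minus strand): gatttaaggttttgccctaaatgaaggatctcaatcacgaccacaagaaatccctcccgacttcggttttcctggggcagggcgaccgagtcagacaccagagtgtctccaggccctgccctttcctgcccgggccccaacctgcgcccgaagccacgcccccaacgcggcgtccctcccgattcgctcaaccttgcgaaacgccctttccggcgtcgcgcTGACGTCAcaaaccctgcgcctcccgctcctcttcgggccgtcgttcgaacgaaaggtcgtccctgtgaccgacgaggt
Uqcrc1 (chr9:108936398-108936697, plus strand): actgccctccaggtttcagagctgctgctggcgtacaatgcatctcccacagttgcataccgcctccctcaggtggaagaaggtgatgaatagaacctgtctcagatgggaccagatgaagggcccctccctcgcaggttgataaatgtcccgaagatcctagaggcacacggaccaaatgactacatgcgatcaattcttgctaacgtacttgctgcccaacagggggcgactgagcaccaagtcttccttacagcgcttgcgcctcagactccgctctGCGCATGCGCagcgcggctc
Ndufs4 (chr13:114388045-114388344, minus strand): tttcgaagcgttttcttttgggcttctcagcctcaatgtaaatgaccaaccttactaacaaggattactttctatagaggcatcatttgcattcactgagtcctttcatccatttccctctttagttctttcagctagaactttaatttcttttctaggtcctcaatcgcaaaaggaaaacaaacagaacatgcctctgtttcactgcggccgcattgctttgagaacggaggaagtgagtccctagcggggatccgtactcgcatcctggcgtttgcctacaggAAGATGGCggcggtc
The capitals mark the CREB motif in Uqcrfs1, 2 overlapping nuclear respiratory factor 1 matches on opposite strands in Uqcrc1, and the YY1 motif in Ndufs4. The promoters of Uqcrc2 and Cyc1 were not analysed here.

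Across the members, log2 fold changes (Abi3_KO minus Abi3_WT) were more often positive than negative and small, and with reads outside genes as a covariate they were not (median -0.01, 44 of 94 positive). Of the 99 members, 94 had enough reads to be tested, and 73 of these had a positive log2 fold change and 21 a negative one. The median log2 fold change of the members was 0.10, with quartiles of 0.01 and 0.17. Over all 17626 genes tested it was 0.00, with 49.5% positive. Over the 7780 genes averaging 50 or more normalized counts, the level of most members, it was 0.02, with 54.8% positive. Markers of neurons, oligodendrocytes, microglia and astrocytes moved by about as much. The median was 0.11 for the neuronal list (6 of 8 positive), 0.15 for oligodendrocytes (6 of 6), 0.13 for microglia (5 of 6) and -0.10 for astrocytes (1 of 6). It was -0.07 for endothelial cells (2 of 5), 0.24 for choroid plexus (4 of 6), -1.10 for blood (0 of 4) and -0.12 for muscle (1 of 2). The part of these cell types in the members' values was not tested. The 5 members that could not be tested were Cox7b2 and Cox8b, with at most 8 and 3 reads in any library, and Cox8c, Ndufb11b and a second entry named Atp5po, with none.

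A single member passed the adjusted threshold of 0.05, Uqcrc2, which was higher in Abi3_KO. This is 1 of 94 members, beside 0.539% of all genes tested in either direction, 0.34% called higher, and 1.22% of the genes averaging 50 or more normalized counts. At an unadjusted p under 0.05 there were 11 higher members (6 without Abi3_KO replicate 2) and 1 lower, beside 4.14% of all genes tested that were higher and 4.44% that were lower. All 12 were among the 82 members that averaged 50 or more, for which the shares over all genes of that level were 6.63% higher and 4.45% lower. The values of 3 members, Uqcrc2, Uqcrfs1 and Cox7a2l, did not overlap between genotypes, all higher in Abi3_KO, against 0.539% of all genes tested and 0.925% of those with a mean of at least 50. DESeq2 gave no adjusted p to 15 members of low count.

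**Figure D1:**
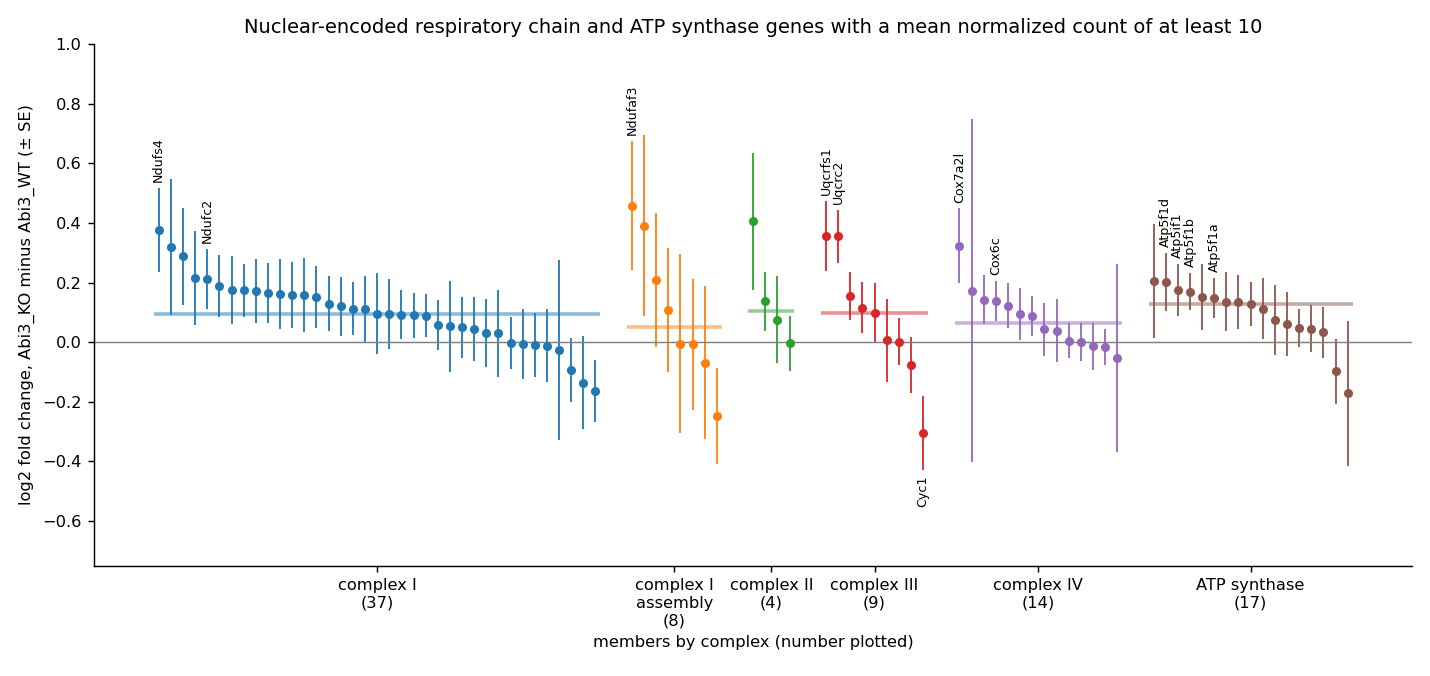
Log2 fold change (Abi3_KO minus Abi3_WT, y axis, points with SE bars) of the 89 members averaging 10 or more normalized counts, sorted within each complex along the x axis, with the median of the plotted points of each complex as a horizontal line. Every such median lies above 0, the named genes are those with an unadjusted p under 0.05, and Cyc1 is the only one of them below 0.

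Complex III passes electrons from ubiquinol to cytochrome c and held the one called member, Uqcrc2, and the one member that was lower at an unadjusted p under 0.05, Cyc1. Uqcrc2 encodes core protein 2, a large matrix-side subunit needed for assembly (chr7:120233976-120260035, GRCm39). Its normalized count in Abi3_WT mice ran from 366 to 434 with a median of 403. In Abi3_KO mice it was 510, 507, 536, 442 and 584 for replicates 1 to 5. Every Abi3_KO mouse lay above every Abi3_WT mouse, with replicate 4 nearest. The means were 403 ± 22.1 (SD, n = 6) and 516 ± 51.6 (SD, n = 5), and the log2 fold change was 0.35 with an SE of 0.09 (DESeq2, adjusted p = 0.0113). It stayed past the threshold in all 11 fits that left out 1 mouse (adjusted p of 0.00207 to 0.0473). It did not pass with edgeR (adjusted p = 0.145), with limma (adjusted p = 0.171), or with reads outside genes as a covariate in DESeq2, where the log2 fold change was 0.17 (adjusted p = 1.00).

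Uqcrfs1 encodes the Rieske iron-sulfur protein, the catalytic subunit that takes the first electron from ubiquinol (chr13:30723448-30729345). Its normalized count was 137 to 189 in Abi3_WT mice with a median of 164. It was 218, 207, 202, 213 and 207 in the Abi3_KO mice, a narrow band that lay above all Abi3_WT values. The log2 fold change was 0.36 with an SE of 0.12, and the adjusted p of 0.102 from DESeq2 missed the threshold. With the covariate for reads outside genes its log2 fold change was 0.41 and its unadjusted p, 0.00229 without the covariate, was 0.0632.

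Cyc1 encodes cytochrome c1, the heme subunit that hands electrons to cytochrome c (chr15:76227204-76230462), and had the opposite sign. Its normalized count was 225 to 302 in Abi3_WT mice with a median of 273. It was 191, 180, 258, 226 and 240 in the Abi3_KO mice, so replicates 3 to 5 lay within the Abi3_WT range and replicates 1 and 2 below it. The log2 fold change was -0.30 with an SE of 0.12 (DESeq2, unadjusted p = 0.0143, adjusted p = 0.248). The other 6 genes of the complex had log2 fold changes of -0.08 to 0.15. Uqcrq, a small subunit beside cytochrome b, was at the upper end of these (adjusted p = 0.424), and Uqcrc1, which encodes core protein 1, the partner of the Uqcrc2 protein, was at the lower end (adjusted p = 0.801).

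Ratios of read counts within a library do not depend on how libraries are scaled, and were chosen after the values of these genes were seen, so they are given without a test. Uqcrc2 to Cyc1 was 1.36 to 1.63 in Abi3_WT mice and 1.95 to 2.82 in Abi3_KO mice, without overlap. Uqcrfs1 to Cyc1 was 0.522 to 0.762 in Abi3_WT and 0.782 to 1.15 in Abi3_KO. Uqcrc2 to Uqcrc1 was 0.955 to 1.24 in Abi3_WT and 1.16 to 1.64 in Abi3_KO, where Abi3_KO replicate 4 fell inside the Abi3_WT range. The summed normalized count of all 9 genes averaged 4076 ± 140 (SD, n = 6) for Abi3_WT against 4320 ± 81.0 (SD, n = 5) for Abi3_KO, and the ranges overlapped.

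**Figure D2:**
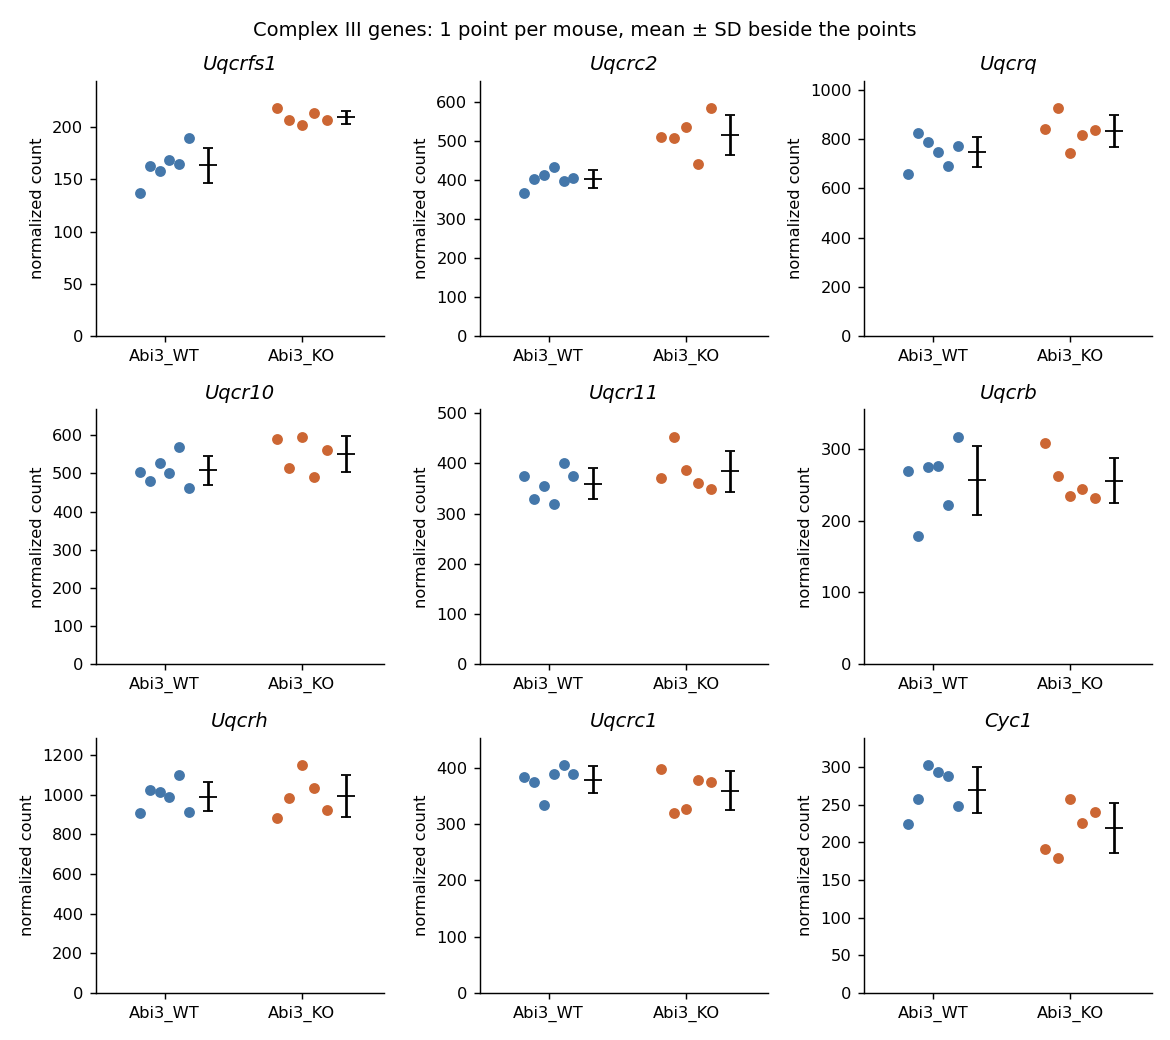
Normalized counts (y axis, starting at 0) of the 9 complex III genes, 1 panel each, with 1 point per mouse in replicate order and mean ± SD beside the points for 6 Abi3_WT and 5 Abi3_KO mice. Uqcrfs1 and Uqcrc2 are separated between genotypes, Cyc1 leans lower in Abi3_KO with overlap, and the other panels overlap.

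Complex I, the NADH dehydrogenase through which most electrons enter the chain, showed many small positive differences and no called gene. Of 37 genes tested, 29 had a positive log2 fold change and 8 a negative one, with a median of 0.10. Only Ndufs4 and Ndufc2 had an unadjusted p under 0.05. Ndufs4 encodes an accessory subunit beside the NADH-oxidising end whose loss causes Leigh syndrome in people. Its normalized count was 143 to 183 in Abi3_WT mice with a median of 160. It was 202, 197, 209, 165 and 283 in the Abi3_KO mice, where replicate 4 alone lay within the Abi3_WT range and replicate 5 stood highest. The log2 fold change was 0.38 with an SE of 0.14 (DESeq2, adjusted p = 0.178), the highest of the complex, and it was -0.01 with the covariate for reads outside genes. Ndufc2, which encodes a subunit of the membrane arm, had means of 604 ± 57.6 (SD, n = 6) and 699 ± 111 (SD, n = 5) (DESeq2, adjusted p = 0.366). The lowest of the complex was Ndufv2, which encodes an iron-sulfur subunit of the NADH-oxidising module, with a log2 fold change of -0.16 (DESeq2, adjusted p = 0.543).

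The summed normalized count of the complex I genes was 12176 to 12544 in Abi3_WT mice and 12577 to 14109 in Abi3_KO mice, so these sums did not overlap, although the gap between the nearest mice was small beside the spread in Abi3_KO. The sum was 6.82% higher in Abi3_KO. The 8 assembly factors, which help to build the complex without being part of it, had 4 positive and 4 negative log2 fold changes with a median of 0.05. Without 1 mouse that median ran from 0.02 (Abi3_KO replicate 4 left out) to 0.15 (Abi3_WT replicate 3), and it was 0.13, 0.10 and 0.10 without Abi3_KO replicates 1, 3 and 5. Ndufaf3 was highest at 0.46 (DESeq2, adjusted p = 0.361), with values of 47.1 to 78.3 in Abi3_WT and 61.0 to 114 in Abi3_KO. Ndufaf4, whose protein binds that of Ndufaf3, was lowest at -0.25 (DESeq2, adjusted p = 0.555), and at -0.33 to -0.16 without 1 mouse.

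Complex II, succinate dehydrogenase, is the enzyme shared by the chain and the tricarboxylic acid cycle and has no mitochondrially encoded subunit. None of its 4 genes had an unadjusted p under 0.05. Sdhd, one of the membrane anchors, had a log2 fold change of 0.40 with an SE of 0.23 (DESeq2, adjusted p = 0.486), and its values ran from 44.2 to 92.9 in Abi3_WT and from 65.7 to 113 in Abi3_KO. Sdha, the flavoprotein that oxidises succinate, had means of 508 ± 42.8 (SD, n = 6) and 507 ± 49.8 (SD, n = 5).

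Complex IV, cytochrome c oxidase, is built from subunits of which several exist as tissue-specific pairs. Of 18 genes tested, 15 had a positive log2 fold change and 3 a negative one. The median was 0.11, and it was 0.05 without Abi3_KO replicate 5 and 0.06 without Abi3_KO replicate 2. The positive ones included Cox4i2, Cox5b-ps (annotated as protein-coding), Ndufa4l2 and Cox6b2, which averaged only 2.28, 2.09, 3.91 and 8.73 normalized counts. Cox7a2l, whose protein helps to join complexes III and IV into supercomplexes, had normalized counts of 148 to 170 in Abi3_WT mice with a median of 159. In the Abi3_KO mice it was 178, 244, 209, 184 and 178, all above the Abi3_WT range. The log2 fold change was 0.32 with an SE of 0.13, and DESeq2's adjusted p was 0.207. An exact second copy elsewhere in the genome covered 43.5% of the read-length windows at its 3′ end, so part of its reads could not be placed uniquely. Cox6c, a small nuclear-encoded subunit, had means of 1627 ± 91.9 (SD, n = 6) and 1791 ± 148 (SD, n = 5) (DESeq2, adjusted p = 0.366).

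Of the paired isoforms, the forms found in most tissues were counted deeply, and those of muscle, lung or testis had at most 56 reads in any library. Cox4i1 had means of 1766 ± 36.2 (SD, n = 6) and 1766 ± 158 (SD, n = 5), whereas Cox4i2, a form of lung that low oxygen induces, had at most 8 reads in any mouse. On so few reads Cox4i2 had the highest log2 fold change of the complex, 0.71 (DESeq2, unadjusted p = 0.572), and Cox6a2 the lowest, -0.05. Cox6a1 had means of 1832 ± 49.8 (SD, n = 6) and 1811 ± 136 (SD, n = 5), and Cox6a2, the heart and muscle form, 35.8 ± 14.1 (SD, n = 6) and 34.1 ± 6.02 (SD, n = 5). Cox6b1 had means of 757 ± 57.8 (SD, n = 6) and 751 ± 59.1 (SD, n = 5), and its testis form Cox6b2 had 3 to 18 reads per library. Cox7a2 had means of 1041 ± 38.9 (SD, n = 6) and 1105 ± 93.2 (SD, n = 5), and the muscle form Cox7a1 had 2 to 20 reads. Cox8a had means of 1448 ± 63.5 (SD, n = 6) and 1454 ± 82.1 (SD, n = 5), Cox8b had at most 3 reads and Cox8c none. Cox7b had means of 477 ± 30.7 (SD, n = 6) and 508 ± 45.6 (SD, n = 5), and its testis form Cox7b2 had at most 8 reads. Ndufa4 had means of 421 ± 37.5 (SD, n = 6) and 431 ± 66.0 (SD, n = 5), and Ndufa4l2, which is induced by low oxygen, had at most 13 reads. No unadjusted p of these isoforms was under 0.05. The muscle forms were read beside the muscle marker list (Acta1, Myh4, Ckm, Tnnt3 and Actn3), which summed to 25.1 to 51.8 normalized counts in Abi3_WT and 33.9 to 63.3 in Abi3_KO.

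ATP synthase turns the proton gradient into ATP with a catalytic F1 head and a membrane ring. Of 18 genes tested, 15 had a positive log2 fold change and 3 a negative one, with a median of 0.12, and none was called. Atp5f1b encodes the catalytic beta subunit of the head. Its normalized count was 1129 to 1361 in Abi3_WT mice with a median of 1265. It was 1462, 1397, 1479, 1321 and 1383 in the Abi3_KO mice, where replicate 4 alone fell inside the Abi3_WT range. The log2 fold change was 0.17 with an SE of 0.06 (DESeq2, adjusted p = 0.180). Its partner Atp5f1a, the alpha subunit, had means of 1329 ± 86.3 (SD, n = 6) and 1470 ± 110 (SD, n = 5) (DESeq2, adjusted p = 0.343). The ratio of Atp5f1b to Atp5f1a reads, 2 subunits that alternate in the head in equal number, was 0.853 to 1.10 in Abi3_WT and 0.892 to 1.06 in Abi3_KO.

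Atp5f1d, the delta subunit of the central stalk, had means of 411 ± 50.5 (SD, n = 6) and 473 ± 32.4 (SD, n = 5) (DESeq2, adjusted p = 0.376). Atp5if1, the inhibitor that stops the enzyme from running in reverse, had means of 825 ± 72.2 (SD, n = 6) and 930 ± 104 (SD, n = 5) (DESeq2, adjusted p = 0.391). The summed normalized count of the ATP synthase genes ran from 9868 to 10820 in Abi3_WT and from 10272 to 11475 in Abi3_KO, with Abi3_KO replicate 4 alone inside the Abi3_WT range. The mean sum was 8.31% higher in Abi3_KO. As a mean of log2 levels, which weights every gene alike, the difference was 0.04. Atp5mc2, with 0 to 16 reads and a log2 fold change of -1.13, weighs as much in that mean as any other gene.

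Subunit c, which forms the membrane ring, is made from 3 genes with different transit peptides and 1 mature protein. Atp5mc3 had means of 1206 ± 97.3 (SD, n = 6) and 1317 ± 101 (SD, n = 5), Atp5mc1 had 91.0 ± 23.6 (SD, n = 6) and 105 ± 15.0 (SD, n = 5), and Atp5mc2 had 0 to 16 reads. Atp5mc1 and Atp5mc2 were also the highest and lowest log2 fold changes of the complex, 0.20 and -1.13, with unadjusted p-values of 0.282 and 0.245 (DESeq2). Without 1 mouse they ran from 0.12 (Abi3_WT replicate 1 left out) to 0.33 (Abi3_WT replicate 6) and from -1.56 (Abi3_KO replicate 5) to -0.46 (Abi3_WT replicate 4). These counts carry a limit set by sequence copies. In the last 500 bases of the transcript, the share of windows of read length (76 bases) with an exact second copy in the GRCm39 genome was 100% for Atp5mc2 and 87.8% for Atp5mc1. The share was also over 50% for Cox7c, Ndufs5, Atp5mg, Ndufs3 and Atp5pd. The 7 genes at 50% or more had a median mean normalized count of 64.1, with Cox7c highest at 731. That median was 386 for the 15 members with counts and a smaller share, and 349 for the 74 with counts and no such copy. Counting kept only reads aligned to 1 place. Uqcrc2, Uqcrfs1, Cyc1 and Ndufs4 had no copied window.

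**Figure D3:**
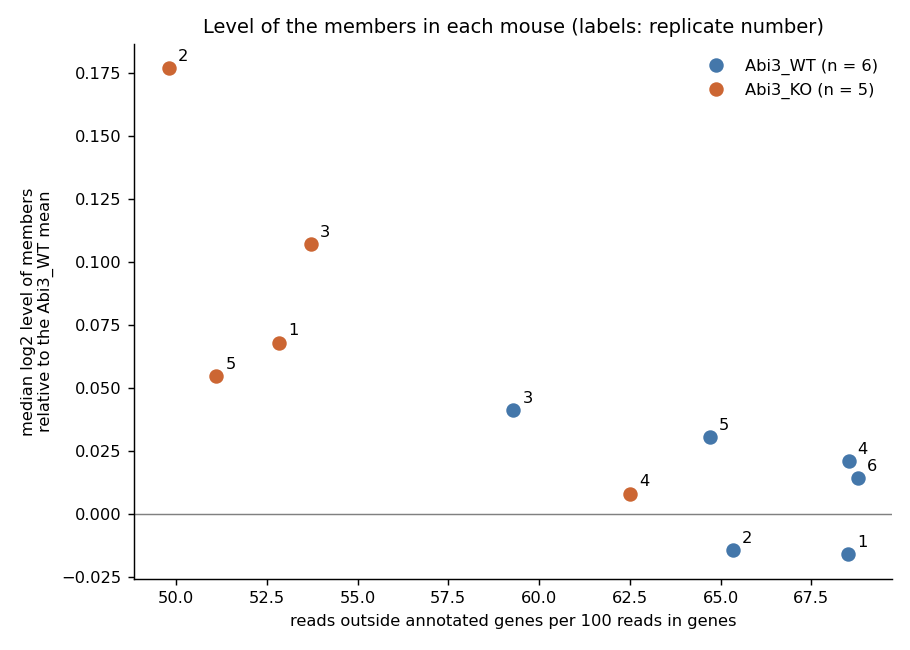
Median over the 89 members averaging 10 or more normalized counts of the log2 level relative to the Abi3_WT mean (y axis), against reads outside annotated genes per 100 reads in genes (x axis), with 1 point per mouse labelled by replicate. Abi3_KO replicates 1, 2, 3 and 5 lie at the upper left, and Abi3_KO replicate 4 lies among the Abi3_WT mice on both axes.

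The small shift was uneven among mice. The median log2 level of the members relative to the Abi3_WT mean was 0.07, 0.18, 0.11, 0.01 and 0.05 in Abi3_KO replicates 1 to 5, and -0.02 to 0.04 in Abi3_WT mice. Abi3_KO replicate 4 lay inside the Abi3_WT range and the other 4 above it. Reads outside genes moved with it: they were 52.8, 49.8, 53.7, 62.5 and 51.1 per 100 in Abi3_KO replicates 1 to 5, so the mouse with a member level like that of Abi3_WT was also the one with a share of outside reads like that of Abi3_WT. With that share as a covariate in DESeq2, the median log2 fold change of the members was -0.01, 44 of 94 were positive, and none had an unadjusted p under 0.05. In that fit 3 genes of the whole table were called, as against 95 without it. The covariate and genotype moved together, and their parts in the result cannot be told apart. In bulk tissue, fewer cells of a type and less RNA per cell also cannot be told apart.

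**Figure D4:**
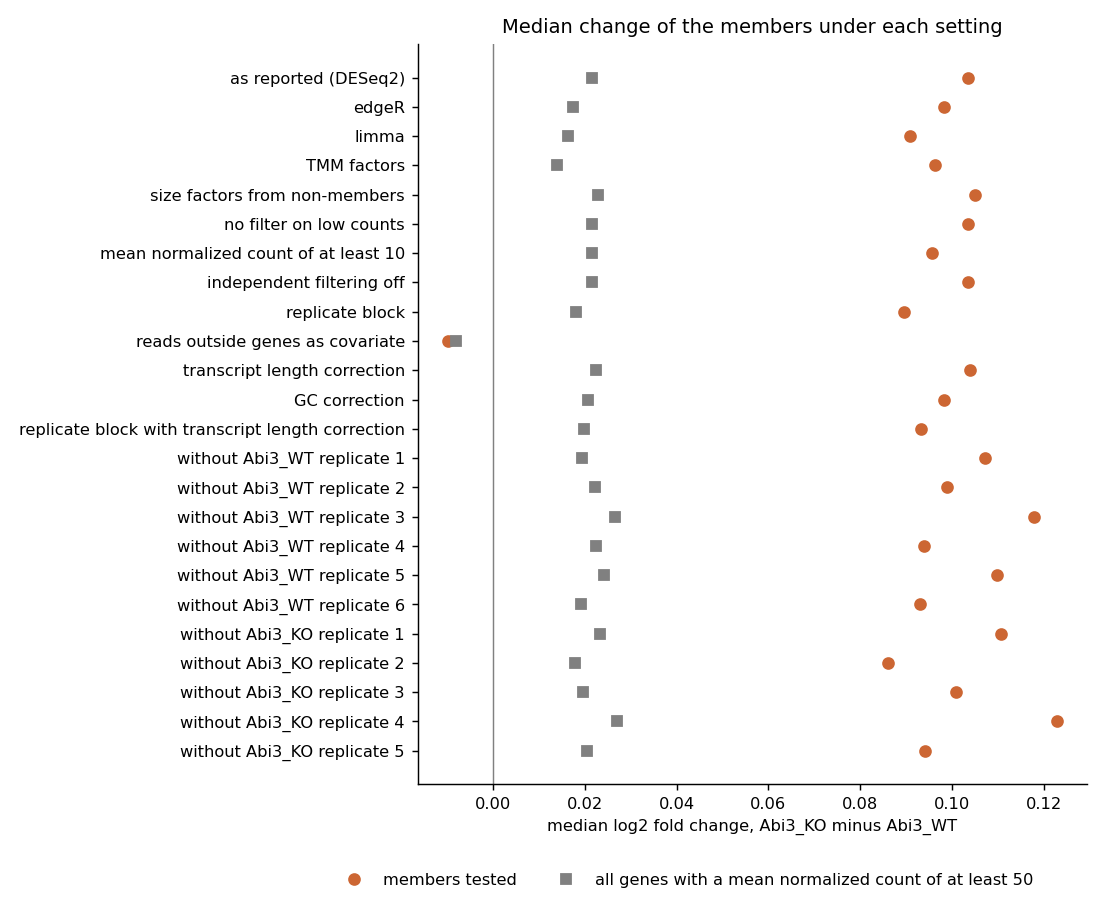
Median log2 fold change (Abi3_KO minus Abi3_WT, x axis) of the members tested (circles) and of all genes averaging 50 or more normalized counts (squares), for each way of fitting the data (y axis). The members' median lies between 0.09 and 0.12 in every fit except that with reads outside genes as a covariate, where it is -0.01 and lies beside the square of all genes.

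Other genes of the pathway were described from lists of their own, and none of their genes that received an adjusted p was called. Too low for an adjusted p in DESeq2 were 24 of the 39 tested assembly factors, 9 of the 14 biogenesis genes, 3 carriers and 1 gene of the tricarboxylic acid cycle list. At an unadjusted p under 0.05 there were 2 higher assembly factors, 1 higher gene of the tricarboxylic acid cycle list and 1 lower biogenesis gene. Over all genes tested, 4.14% were higher and 4.44% lower at that threshold. The edgeR and limma fits called none of these pathway genes. Of the 13 subunits encoded by mitochondrial DNA, 8 were tested and all 8 had a positive log2 fold change, of 0.00 to 0.10. Of 39 assembly factors outside the prefixes, 19 had a positive log2 fold change and 20 a negative one, with a median of -0.02. The 12 genes of electron and adenine nucleotide transport, such as Cycs for cytochrome c, had a median of 0.10 with 10 positive. The 16 genes of the tricarboxylic acid cycle and pyruvate dehydrogenase, which feed the chain, had a median of 0.10 with 13 positive. The 14 genes of mitochondrial biogenesis and mitochondrial DNA upkeep had a median of -0.10 with 6 positive. Polg, the polymerase that copies mitochondrial DNA, was lower without overlap, at 83.7 to 123 normalized counts in Abi3_WT and 47.5 to 75.7 in Abi3_KO (DESeq2, adjusted p = 0.0925). Over all 17626 genes tested, 88 were lower without overlap, and 48 of the 7780 genes averaging 50 or more normalized counts. Beside these lists, 16 glycolytic enzymes had a median of 0.03 with 11 positive. The 89 cytosolic ribosomal protein genes tested, which are also short and abundant, had a median of 0.04 with 65 positive and 3 called. Over all genes tested 0.539% were called, and 1.22% of those averaging 50 or more normalized counts.

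Pseudogene copies of the members were read beside their parents, since reads can pass between near-identical sequences. Matching found 179 annotated pseudogenes with at least 90% identity over at least 100 bases to a member, of which 84 had any count and 21 were tested. None of these could be called in the DESeq2 fit as run, since DESeq2 adjusted only genes with a mean above 70.4 and the highest mean of a tested copy was 24.5. Unadjusted p-values under 0.05 were found for 2 of the 21 copies tested, 1 lower and 1 higher in Abi3_KO. Over all genes tested, 4.44% were lower and 4.14% higher at that threshold. With DESeq2's filter on low means off, or with edgeR, 1 was called, and with limma none. That was the lower one, Gm10039, a processed copy of Atp5mc1 on the chromosome of Abi3 (chr11:100252542-100252952, 4.52 Mb from Abi3), and it is named here because of its values. Ndufa12-ps (chr5:130217236-130217637), a processed copy of the complex I gene Ndufa12, is shown because its values divided the mice differently, and Gm20768, the higher one, is described after them. Stretches of 41 bases of GRCm39 transcripts around a differing base are given for both, with that base in capitals. Gm10039 differs from Atp5mc1 by G385A in its 411 bases, and Ndufa12-ps from Ndufa12 by A99G and T378C in its 402 bases, where the parent's base comes first and positions count from 1 at the 5′ end of the copy.
Atp5mc1: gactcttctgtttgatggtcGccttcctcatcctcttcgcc
Gm10039: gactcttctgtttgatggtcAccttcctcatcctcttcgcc
Ndufa12: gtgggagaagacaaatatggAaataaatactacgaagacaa
Ndufa12-ps: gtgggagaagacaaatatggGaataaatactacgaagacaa

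Gm10039 had 33.1, 63.6, 47.1, 44.3, 38.4 and 0 normalized counts in Abi3_WT replicates 1 to 6. It had 1.05, 2.02, 0, 2.26 and 2.28 in Abi3_KO replicates 1 to 5. Thus 5 of 6 Abi3_WT mice had counts, and Abi3_WT replicate 6 was like the Abi3_KO mice (DESeq2, adjusted p = 1.18e-05 with the filter off, and edgeR, adjusted p = 7.96e-05). Its parent Atp5mc1, which lies 0.226 Mb from Abi3, had 60.5 to 130 in Abi3_WT and 92.2 to 125 in Abi3_KO, with its highest value in Abi3_WT replicate 6. Parent and copy together had 93.6 to 151 in Abi3_WT and 94.5 to 125 in Abi3_KO.

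Ndufa12-ps had 67.3, 54.4 and 57.9 normalized counts in Abi3_WT replicates 1, 3 and 4 and 51.3 in Abi3_KO replicate 3. The other 7 mice had 2.12 to 10.2. The copy was thus counted in mice of both genotypes and near the floor in others of both. Ndufa12 itself had 356 to 422 in Abi3_WT and 379 to 475 in Abi3_KO, with a log2 fold change of 0.11 (DESeq2, adjusted p = 0.663). None of the last 500 bases of Ndufa12 had an exact second copy of read length.

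Gm20768 (chr5:137220498-137222833), a pseudogene with 93.3% identity over 194 bases to Ndufab1, the acyl carrier protein of complex I, rested on 1 to 9 reads per library. It had 0.669 to 3.62 normalized counts in Abi3_WT mice with a median of 2.42. It had 9.44, 7.07, 10.7, 5.65 and 9.10 in Abi3_KO replicates 1 to 5, so the groups did not overlap. Over all genes tested, 0.539% were higher without overlap. The log2 fold change was 1.82 with an SE of 0.68 (DESeq2, unadjusted p = 0.00746, and adjusted p = 0.342 with the filter off), and it was 1.27 with the covariate for reads outside genes (unadjusted p = 0.320). Its parent Ndufab1 had a log2 fold change of -0.14 (DESeq2, adjusted p = 0.785).

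**Figure D5:**
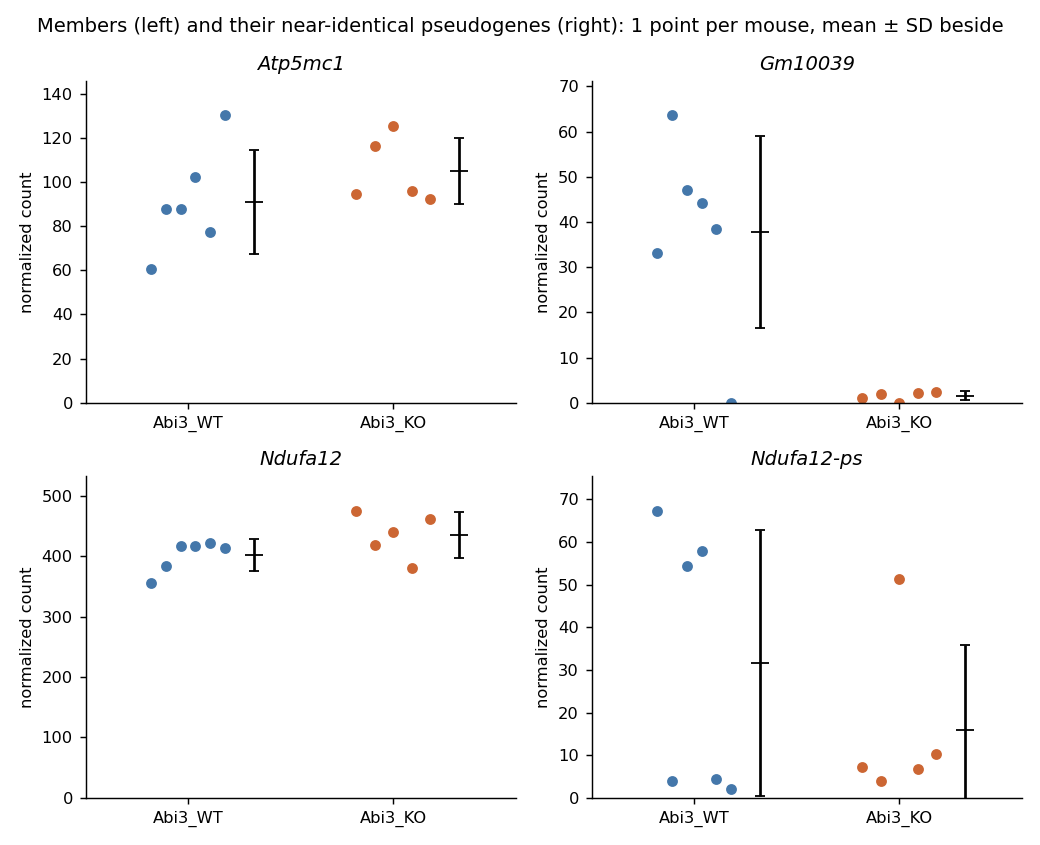
Normalized counts (y axis, starting at 0) of Atp5mc1 and Ndufa12 (left) and of their pseudogenes Gm10039 and Ndufa12-ps (right), with 1 point per mouse in replicate order and mean ± SD beside the points for 6 Abi3_WT and 5 Abi3_KO mice. Gm10039 is near 0 in all Abi3_KO mice and in Abi3_WT replicate 6, and Ndufa12-ps is above 50 in 3 Abi3_WT mice and 1 Abi3_KO mouse.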

How the data were processed

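QuantSeq 3′ libraries of cerebral cortex from 11 mice were analysed from 1 count table per mouse. The authors trimmed adapter and poly(A) sequence, aligned single-end reads to GRCm39 with STAR (version 2.7.3a) and counted them per gene and strand with HTSeq (version 0.9.1), as the labels and the study's methods state. The deposited values are raw counts of uniquely placed reads, without molecular identifiers, so the floor of 3 counts and other depth limits cover counting error only.

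Gene names came from a later annotation of the same build. The depth was 3202310 to 5501958 reads in genes. Genes with at least 10 reads in total entered DESeq2 1.42.0 in R 4.3.3, modelled on genotype alone. Genes averaging 1.5 or more normalized counts were reported, with Benjamini-Hochberg adjusted p-values over all genes and independent filtering aimed at 0.05, and the members were read from that fit. The labels name each library as a replicate of its genotype, and the p-values measure the spread between these mice. Alternatives used edgeR (version 4.0.16, quasi-likelihood test), limma (version 3.58.1, voom with quality weights), other scalings, filters and covariates, and each mouse left out. DESeq2, edgeR and limma, each modelled on genotype alone, were tested on simulated data, and the other alternatives were not. Copies were sought with BLAST (version 2.17.0). Per-mouse medians used log2 of the normalized count plus 0.5, relative to the Abi3_WT mean plus 0.5. No promoter was analysed for members not in the RefSeq table.

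The members and lists were chosen with earlier results of these data known. Named genes were Abi3, members past the threshold, up to 4 members per complex with the smallest unadjusted p under 0.05, members and copies without overlap that averaged 10 or more normalized counts, the highest and lowest of each complex, paired tissue isoforms, and related genes or copies past the threshold. Uqcrc1, Uqcrq, Cox5b-ps, Ndufa12, Gm10039, Ndufa12-ps, Gm20768, Ndufab1, Polg, Sucla2, Tmem126a, Cmc1 and the genes named only for copied ends or absent counts were added after their values were seen, as was the list of glycolytic enzymes.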

Additional observations from a re-analysis of the deposited data

Results flagged for a closer look

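In 100 groups of 5 or 6 mice examined for a mouse far from the others, 6 stood apart, and about 1 in 20 does so by chance. Atp5f1a was 1489 normalized counts in Abi3_WT replicate 3, against 1328 in the next mouse. Cox6b1 was 853 in Abi3_KO replicate 5, against 742 in the next, and Ndufa4l2 was 13.6 in Abi3_KO replicate 1, against 3.39. Ndufa12-ps was 51.3 in Abi3_KO replicate 3, while the other 4 mice of that group had at most 10.2. The summed complex IV genes reached 13008 in Abi3_KO replicate 2, against 11655 in the next mouse, and the summed ATP synthase genes were 10272 in Abi3_KO replicate 4, against 11236. The causes were not tested.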

How the results depend on the processing

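The number of genes called over the whole table was 95 in DESeq2, 37 with edgeR, 20 with limma, 57 with independent filtering off, 33 in each of the fits with a replicate block, 3 with reads outside genes as a covariate, and 46 to 120 with 1 mouse left out, lowest without Abi3_KO replicate 2 and 61, 48, 61 and 47 without Abi3_WT replicates 1 and 6 and Abi3_KO replicates 1 and 5. Members called were 0 with edgeR, limma, the covariate and the block, and 1 in all 11 fits without 1 mouse. Members at an unadjusted p under 0.05 numbered 12 in DESeq2, 7 with the block, 0 with the covariate, and 7 to 15 without 1 mouse (7 without Abi3_KO replicate 2). Higher ones were 11, and 7 with edgeR, 6 with the block, 7 with the block and length correction, 0 with the covariate and 6 to 14 without 1 mouse (6 without Abi3_KO replicate 2). Mice with the same replicate number did not deviate together (correlations of -0.00 to 0.07 over 5 pairs, 2 of 5 Abi3_WT mice closest to their own number), so the pairing is one of number only, and with the block the members' median was 0.09 and the adjusted p of Uqcrc2 was 0.104. The members' median was 0.09 to 0.12 without 1 mouse and -0.00969 with the covariate, under which the complex I median log2 fold change was 0.0276, the complex IV median log2 fold change -0.0312 and the ATP synthase median log2 fold change -0.0270. No scaling moved the median of all genes by over 0.1. ATP synthase was 0.12 higher as a log2 ratio of sums and 0.0385 as a mean of log2 levels. In that mean Atp5mc2, with 0 to 16 reads, weighs as much as any other gene. No copy received an adjusted p in DESeq2 as run, so that count of 0 is no outcome of the test. With edgeR or with filtering off 1 copy was called, and with limma 0 (fits chosen after the data were seen). Gm10039 was -4.53 with edgeR and -4.63 with filtering off, and edgeR, filtering off and limma called Abi3 (-5.13, -5.42 and -4.53). Related genes called were 0 in every fit, over those that received an adjusted p. The causes were not tested.

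Directions that turned were mostly of small log2 fold changes or of few reads. With the covariate the values were Atp5f1a -0.0683, Atp5if1 -0.0566, Atp5mc3 -0.0356, Ndufs4 -0.0117, Ndufa12 -0.0576, Ndufa4 -0.25, Cox7a2 -0.00992, Cox7b -0.0571, Cox8a -0.0434, Cox4i1 -0.0352, Cox7a1 -0.495, Cox4i2 -2.26, Cox6a1 0.0352 and Uqcrc1 0.0917. With the replicate block they were Cox4i1 -0.000949, Cox6a2 0.161, Cox8a -0.000983, Ndufa4l2 -0.0953, and with length correction added Cox4i1 -0.0108, Cox6a1 0.0253, Cox6a2 0.202, Ndufa4l2 -0.0741. Cox4i1 was -0.00446 with edgeR, -0.0090 with limma, -0.00728 with TMM factors and -0.0111 with length correction. Cox6a1 was 0.0371 with length and 0.0212 with GC correction, Cox8a -0.00191 with TMM factors, and Cox6a2 0.0374 and Ndufa4l2 -0.415 with limma. Without 1 mouse, ranges that crossed 0 were -0.0503 to 0.0454 for Sdha, -0.383 to 1.15 for Cox4i2, -0.216 to 0.111 for Cox6a2, -0.0484 to 0.0445 for Cox4i1, -0.0564 to 0.0138 for Cox6a1, -0.0623 to 0.0115 for Cox6b1, -0.201 to 0.607 for Cox6b2, -0.165 to 0.449 for Cox7a1, -0.0131 to 0.0275 for Cox8a, -0.0497 to 0.0985 for Ndufa4 and -0.896 to 0.582 for Ndufa4l2. Members with few reads, such as Cox4i2 and Cox8b, could not be compared at this depth.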

Other observations

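Among the subunits encoded by mitochondrial DNA, mt-Nd3, a membrane subunit of complex I, varied most between mice and not by genotype. It had 291, 233, 197 and 156 normalized counts in Abi3_WT replicates 1 to 4, and 0 and 4.23 in replicates 5 and 6. It had 157, 355 and 247 in Abi3_KO replicates 1 to 3, and 5.65 and 4.55 in replicates 4 and 5. The other 7 tested mitochondrial subunits had counts of 162 or more in every library, while mt-Co2, mt-Nd4l and mt-Atp8 had no read in any library, and mt-Co3 and mt-Atp6 had at most 2 and 1.

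Of the pathway genes outside the members, Tmem126a and Cmc1, which help to assemble complexes I and IV, had log2 fold changes of 0.55 and 0.49. Their unadjusted p-values were 0.0253 and 0.0445 (DESeq2, no adjusted p). Without 1 mouse the log2 fold changes were 0.35 to 0.65 and 0.39 to 0.57. Sucla2, a subunit of the succinyl-CoA ligase of the tricarboxylic acid cycle, had 0.29 (DESeq2, adjusted p = 0.343).

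Members on the chromosome of Abi3 were few. Atp5mc1, Atp5pd, Ndufaf8, Uqcrq and Uqcr10 lie 0.226, 19.6, 24.3, 42.4 and 91.1 Mb from it, with log2 fold changes of 0.20, 0.15, -0.01, 0.15 and 0.12, none with an unadjusted p under 0.05.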
